A study of Drosophila melanogaster with 9 samples.

Results

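The strain compared here, *KahΔATG*, carries a CRISPR deletion in *Kahuli* (*Kah*) that removes most of exon 2 with the predicted start codon, and it was made in embryos that express Cas9 from a vasa transgene. Whole *KahΔATG* embryos, 5 to 16 h after egg laying, were set against whole embryos of the control strain *w1118* of the same age, with 3 replicates of each genotype. The genes described are all those with a normalised read count of at least 10 in at least 3 of these 6 libraries, which were 10972 of the 14631 genes listed and compare with 11084 genes tested in at least 1 mutant of the series. The series also holds 3 libraries of *KahΔZnF*, an in-frame deletion of the zinc-finger region of the same gene, which are used below only to show where *KahΔATG* differed from them. *Drosophila melanogaster* embryos of this age are past gastrulation and range up to late organ formation, so each library is a mixture of stages and of all tissues.

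Kah belongs to the Snail family of C2H2 zinc-finger transcription factors, which in flies includes the mesoderm regulator Snail, the neuroblast factors Escargot and Worniu, and the neuronal factor Scratch. Snail proteins bind E-box sequences and mostly repress transcription. In the visceral mesoderm, the muscle layer around the gut, Kah lies downstream of the receptor tyrosine kinase Alk. A fly egg is loaded with maternal RNA that is cleared as the embryo turns on its own genome, early embryonic cells divide rapidly and then stop, and muscles, nerves, gut and cuticle switch on their terminal genes late in embryogenesis.

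Before the comparisons, the libraries themselves were examined. The *KahΔATG* libraries held 17990440 to 19390121 reads on genes and the *w1118* libraries 18587477 to 20036762. Of the 3 *w1118* libraries, replicate 1 stood apart from the others. Its chi-square per degree of freedom was 46.4 to 55.7 against the other *w1118* libraries, while the other *w1118* pair gave 7.30 and *KahΔATG* pairs gave 7.73 to 9.02. Reads from the mitochondrial genome made up 15.3 to 16.5% in *KahΔATG*, 16.3% in *w1118* replicate 1, and 9.76% and 11.2% in the other *w1118* libraries. Counts and calls that move with this split are given with single libraries left out and with a model term that separates *w1118* replicates 2 and 3 from the other 4 libraries (the mitochondrial term). With that term the genotype difference is the one between the 3 mutant libraries and *w1118* replicate 1 alone, the control that stood apart, which is assumed to vary like the other libraries, so a call lost or a count reduced with it describes that comparison only. The part of the split in the results was not tested beyond those values. The replicates of each genotype came from 1 collection of embryos as the methods put it, so that collection and genotype cannot be told apart. The allele was made in vasa-Cas9 embryos and crossed to balancer flies, so the deletion and the strain background cannot be told apart either. The p-values measure the spread between these libraries, which may be technical. The 16 defining markers of muscle, neurons, glia, hemocytes, midgut, trachea, salivary gland, epidermis and germ cells were all present, with means of 75.6 to 55539 in *KahΔATG* and 41.1 to 87482 in *w1118*. In whole embryos, fewer cells of a type and less RNA per cell cannot be told apart.

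*Kah* (3L, 582824 to 589274 on the minus strand, BDGP6 assembly) was detected in every library. Its normalised read count, the reads on a gene divided by the size factor of the library, was 1700.2, 1569 and 1619.9 in *KahΔATG* and 380.0, 357 and 369 in *w1118* (log2 fold change 2.14 ± 0.07 (SE), adjusted p = 2.8e-07). Values given for a gene below are its normalised read counts in replicates 1, 2 and 3 of each genotype. Reads on *Kah* were thus higher in all 3 libraries with the deletion than in all 3 controls, and the table does not separate reads inside the deleted part from reads outside it. Among the 6 Snail family genes tested, *CG12605*, an annotated family member, fell, at 299.7, 297 and 306 in *KahΔATG* and 413, 484 and 549 in *w1118* (log2 fold change -0.67 ± 0.11 (SE), adjusted p = 0.0011). The remaining 4 did not pass the test. *sna*, the mesoderm regulator, averaged 563 ± 3.89 in *KahΔATG* and 570.3 ± 47.0 in *w1118* (SD, n = 3 each), *wor*, a neuroblast factor, had a log2 fold change of 0.47, adjusted p = 0.0037, and *esg* and *scrt* had -0.15 and -0.13. *w*, mutated in the control strain, was below the filter at 2.10 to 6.45 in *KahΔATG* and 1.90 to 4.92 in *w1118*. The call on *CG12605* was lost with the mitochondrial term or without *w1118* replicate 3.

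In *KahΔATG*, 2780 of the 10972 genes tested were called (25.3%). A call needed an adjusted p no higher than 0.05 together with a log2 fold change of 0.59 or more, up or down. Of these, 1615 rose (14.7%) and 1165 fell (10.6%), with median log2 fold changes of 0.96 and -0.84 among the called genes and -0.02 over all genes tested. Changes of at least 2-fold numbered 742 up and 424 down, those of at least 8-fold numbered 45 and 34, and those of at least 32-fold 12 and 8. The libraries of the groups did not overlap for 6388 genes (58.2%), which included 1611 of the genes that rose and 1139 of those that fell. An unadjusted p under 0.05 was reached by 6244 genes (56.9%). The calls were spread unevenly over abundance. When genes were ranked by mean count and cut into 5 equal groups, 12.2% rose and 17.5% fell in the least abundant group, while 18.6% rose and 6.20% fell in group 4. Among major chromosome arms the share that rose was 13.5 to 15.8%, and the share that fell ran from 8.58% on the X to 11.7% on 3L.

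**Figure D1:**
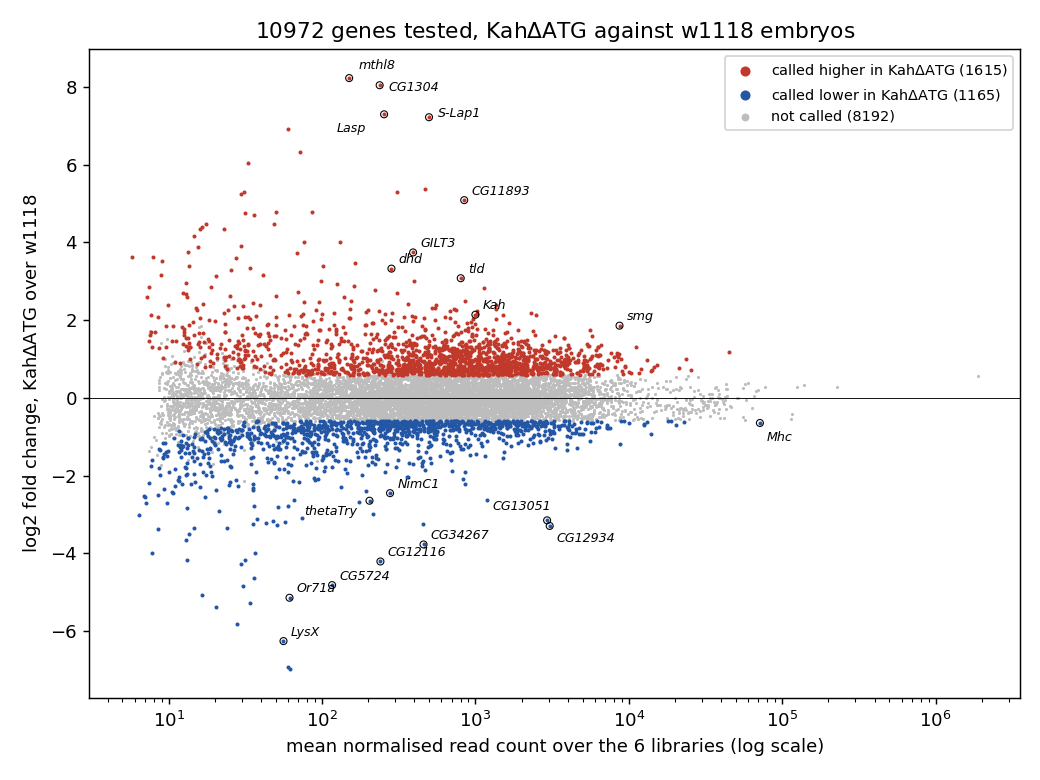
Log2 fold change of *KahΔATG* over *w1118* (vertical axis) against the mean normalised read count of the 6 libraries (horizontal log axis) for each of 10972 genes, with called genes in colour and selected genes named. The 1615 genes that rose lie mostly at middle and high counts, while many of the 1165 that fell lie at low counts.

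The neighbourhood of *Kah* on 3L was examined because the allele was made there. Within 500 kb of *Kah*, 9 of 93 genes tested rose and 8 fell, and within 1000 kb 22 of 156 rose and 13 fell (22.4% called), against 303 and 244 of 2040 on the rest of 3L (26.8% called). Called changes of at least 4-fold numbered 4 among the 156 genes and 39 among the 2040. The 4 were *mthl8*, a Methuselah-like receptor gene described below, and the following 3. *hng3*, of the MADF and BESS domain family, was 170.3, 141 and 179.98 in *KahΔATG* and 32.8, 28.4 and 24.6 in *w1118* (log2 fold change 2.48 ± 0.18 (SE), adjusted p = 6.4e-06). *CG34267* (3L, 500014 to 500451), of no named function, was 36.8, 62.4 and 99.5 in *KahΔATG* and 747, 937 and 871 in *w1118* (log2 fold change -3.77 ± 0.29 (SE), adjusted p = 9.3e-06), and *LysX*, a lysozyme gene, was 0, 2.15 and 0 in *KahΔATG* and 124, 101 and 109 in *w1118*. For all 3 genes the groups did not overlap.

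**Figure D2:**
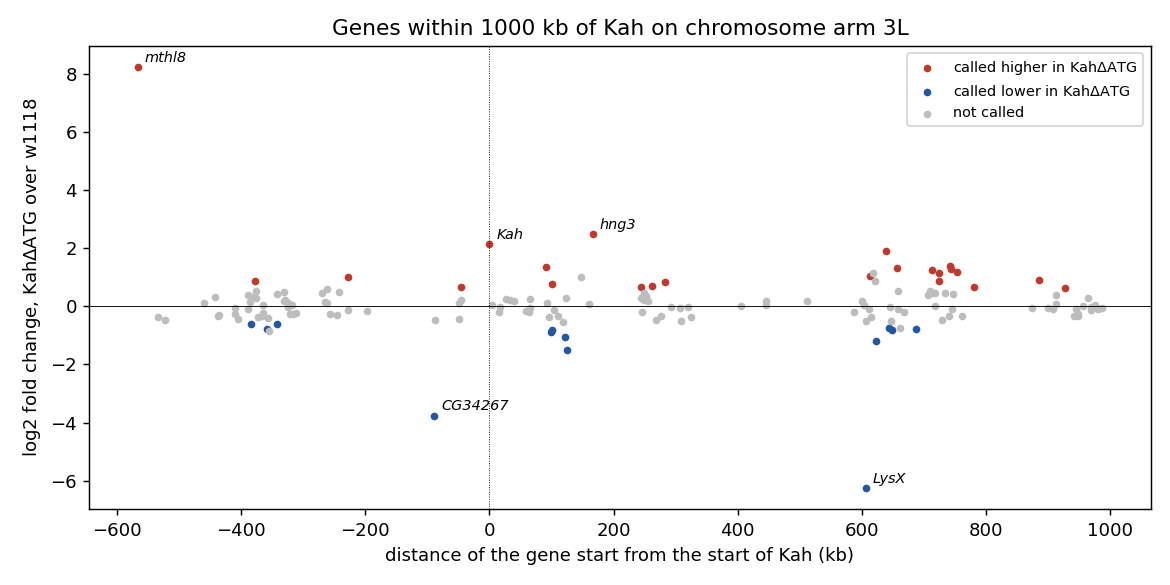
Log2 fold change of *KahΔATG* over *w1118* (vertical axis) against the distance from *Kah* in kb (horizontal axis) for genes tested on 3L around *Kah*, with called genes in colour. Of 156 genes within 1000 kb, 22 rose and 13 fell, and *mthl8* at 8.23 was the highest.

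The 12 genes with the largest rises, among called genes of a mean of at least 100 whose groups did not overlap, were a mixed group. *mthl8* had 307, 328 and 266 in *KahΔATG* and 0, 0 and 0 in *w1118*, at least 105-fold higher against a limit of 3 reads in each *w1118* library. *CG1304*, a serine protease gene, had 474, 452 and 496 in *KahΔATG* and 0, 0.948 and 1.97 in *w1118*, a ratio of summed reads of 496 (95% counting interval 169 to 2410.0). *Lasp*, a LIM and SH3 protein of muscle and actin filaments, had 533, 491 and 491 in *KahΔATG* and 0.936, 1.90 and 4.92 in *w1118*, a ratio of 198 (95% counting interval 100.3 to 459.9). These 3 were nearly silent in the control strain and expressed in every mutant library. *S-Lap1*, a leucyl aminopeptidase known from sperm, had 1104, 878 and 990.4 in *KahΔATG* and 7.49, 4.74 and 4.92 in *w1118* (log2 fold change 7.22 ± 0.19 (SE), adjusted p = 1.4e-07). *CG11893*, of a family annotated as ecdysteroid kinase-like, had 1435, 1781 and 1711 in *KahΔATG* and 47.7, 49.3 and 44.3 in *w1118* (log2 fold change 5.09 ± 0.11 (SE), adjusted p = 5.2e-08), and *GILT3*, a thiol reductase of the GILT family, had 742, 739 and 709 in *KahΔATG* and 53.4, 41.7 and 68.9 in *w1118* (log2 fold change 3.74 ± 0.17 (SE), adjusted p = 7.8e-07). Groups without overlap were a condition of this choice, so the separation is not a further result. *CG33269* rose by 5.38, *CG42587* by 5.29, *CG8316* by 4.02, *CG11263* by 3.48 and *CG1503* by 3.39 on the log2 scale, and these 5 carry no function that is described here. *dhd*, the oocyte-specific thioredoxin needed at fertilization, completed the 12 with 456, 475 and 601 in *KahΔATG* and 90.8, 50.3 and 26.6 in *w1118* (log2 fold change 3.33 ± 0.36 (SE), adjusted p = 6.6e-05). Exons of *Lasp* and *CG33269* overlap those of other annotated genes, so their reads may be shared.

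Among the 12 largest falls, the deepest was *CG5724*, a UDP-glycosyltransferase gene, with 9.46, 8.60 and 4.02 in *KahΔATG* and 196, 213 and 267 in *w1118* (log2 fold change -4.82 ± 0.30 (SE), adjusted p = 2.9e-06). *CG12116*, a predicted sepiapterin reductase-like gene, had 29.4, 19.4 and 23.1 in *KahΔATG* and 520.4, 426 and 423 in *w1118* (log2 fold change -4.21 ± 0.18 (SE), adjusted p = 7.0e-07), and *CG12934*, whose function is not known, had 472, 633 and 582 in *KahΔATG* and 4756, 5299 and 6548 in *w1118* (log2 fold change -3.29 ± 0.13 (SE), adjusted p = 6.7e-07). The falls were chosen under the same condition that the groups did not overlap. *Uhg5*, a host gene of small nucleolar RNAs, had 79.9, 75.3 and 102 in *KahΔATG* and 966, 730.1 and 766 in *w1118* (log2 fold change -3.25 ± 0.15 (SE), adjusted p = 8.1e-07). *CG13051*, one of the most abundant of these transcripts, had 506, 560.3 and 709.9 in *KahΔATG* and 4161, 6052 and 5603 in *w1118* (log2 fold change -3.15 ± 0.16 (SE), adjusted p = 1.2e-06). *thetaTry*, a trypsin of the gut, and *NimC1*, a phagocytosis receptor of hemocytes, fell (log2 fold changes -2.64 and -2.45). The log2 fold change was -2.995 for *CG32243*, -2.67 for *CG1468*, -2.63 for *CG13813* and -2.38 for *CG10560*, and *CG34267* near *Kah* was the remaining gene.

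**Figure D3:**
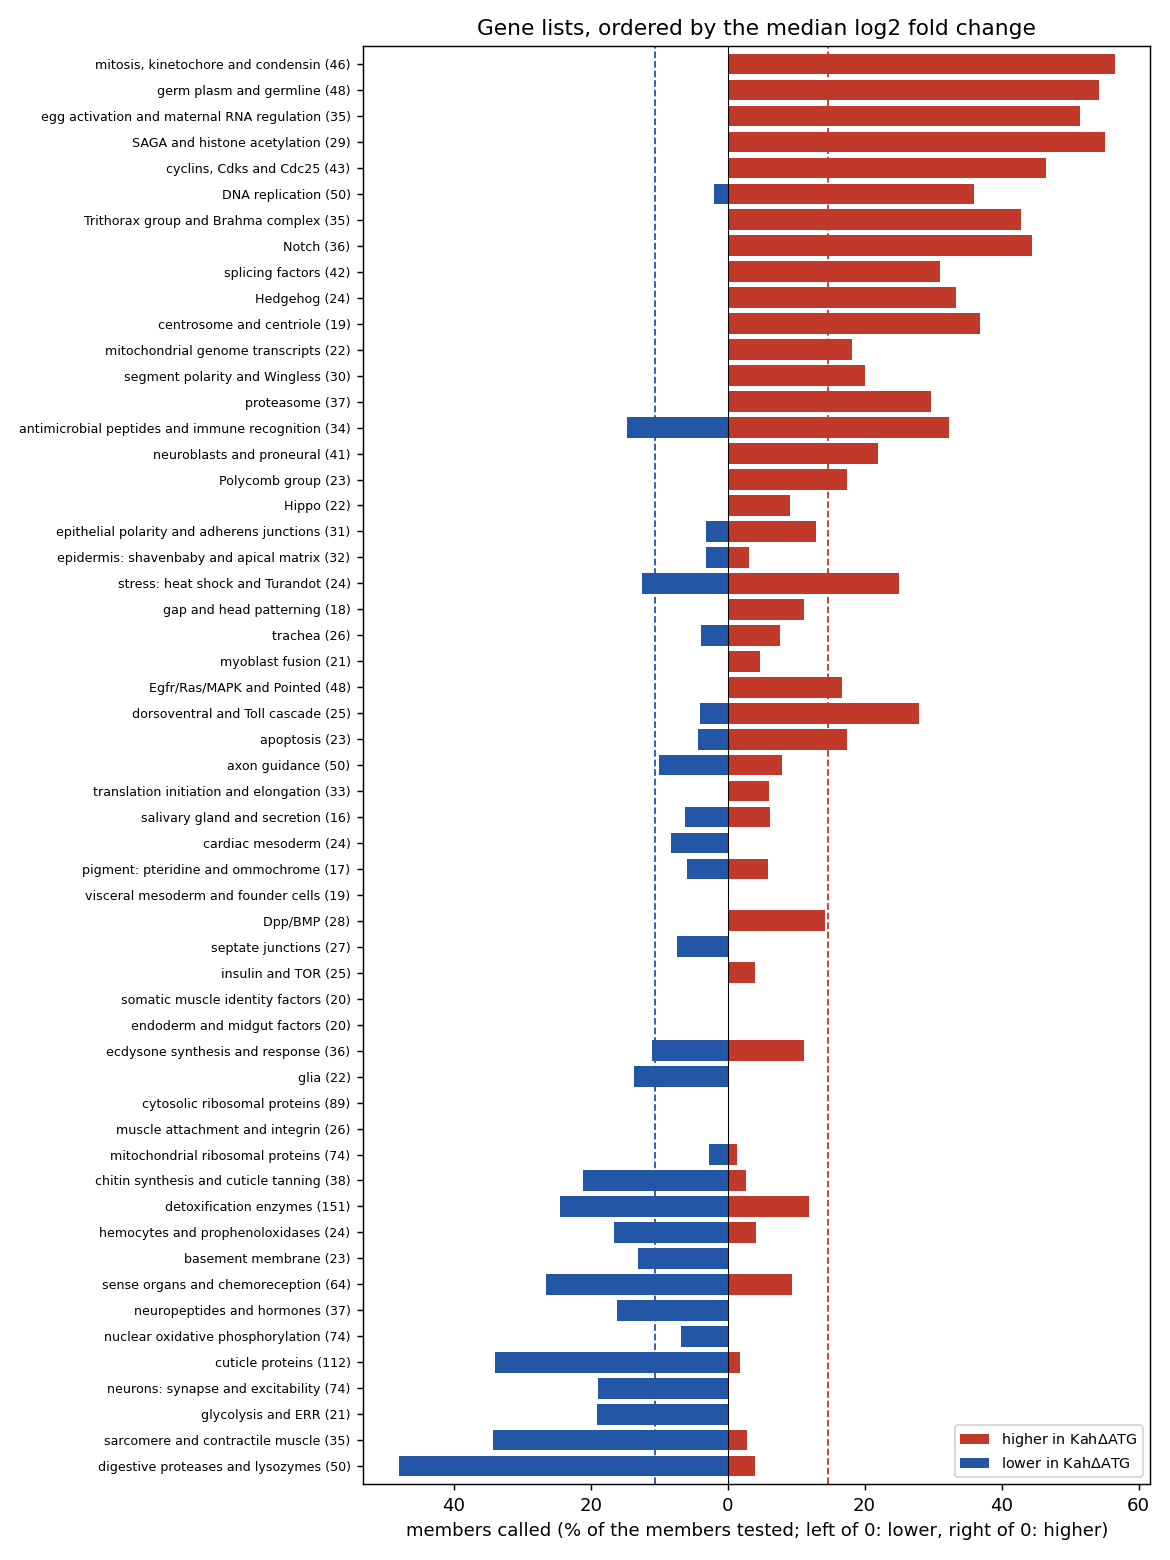
Share of tested members called higher and called lower in *KahΔATG* (horizontal axis, percent) for each gene list (vertical axis), with dashed lines at 14.7% higher and 10.6% lower, the shares over all 10972 genes. Germline, mitosis and SAGA lists lie far above the line for higher genes, and digestive, cuticle and contractile muscle lists above the line for lower genes.

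Transcripts that the mother loads into the egg were more abundant in *KahΔATG*. Of 48 germ plasm and germline genes tested, 26 rose (54.2%) and the other 22 were not called, with a median log2 fold change of 0.71. Of 35 genes of egg activation and maternal RNA regulation, 18 rose (51.4%), with a median of 0.70. *bcd*, the anterior determinant localised in the egg, had 1214, 1243 and 1155 in *KahΔATG* and 218, 332 and 208 in *w1118* (log2 fold change 2.28 ± 0.16 (SE), adjusted p = 5.5e-06). *osk*, which organises germ plasm, had 152, 138 and 165 in *KahΔATG* and 44.9, 30.3 and 21.6 in *w1118* (log2 fold change 2.25 ± 0.25 (SE), adjusted p = 7.7e-05), and *smg*, the RNA-binding protein that triggers decay of maternal messages, had 13811, 14515 and 12572 in *KahΔATG* and 3508, 3994 and 3761 in *w1118* (log2 fold change 1.86 ± 0.07 (SE), adjusted p = 6.7e-07). The groups did not overlap for any of these 3 genes, and the log2 fold change of *smg* ran from 1.81 to 1.92 when single libraries were left out. Genes of the egg-to-embryo transition included *tor*, the receptor of the terminal system, with 929, 947 and 911 in *KahΔATG* and 146, 229 and 167 in *w1118* (log2 fold change 2.38 ± 0.15 (SE), adjusted p = 3.0e-06), *twe*, a Cdc25 phosphatase of meiosis, with 2256, 2465 and 2107 in *KahΔATG* and 412, 432 and 463 in *w1118* (log2 fold change 2.38 ± 0.08 (SE), adjusted p = 3.4e-07), and *plu*, a subunit of the Pan gu kinase complex, with 361, 317 and 307 in *KahΔATG* and 77.7, 72.1 and 55.1 in *w1118* (log2 fold change 2.26 ± 0.15 (SE), adjusted p = 4.7e-06). *gnu*, another subunit of that kinase, rose by 1.87, *wisp*, a cytoplasmic poly(A) polymerase of the egg, by 1.28, and *mtrm*, an inhibitor of Polo in the oocyte, by 2.62 on the log2 scale. Exons of *osk* and *twe* overlap those of other annotated genes, so shared reads are possible for them. The call on *gnu* was lost with the mitochondrial term.

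The germline list includes genes of the piRNA pathway, which silences transposons in germ cells. The Piwi-class Argonautes all rose, *AGO3* with 2067, 2119 and 1805 in *KahΔATG* and 609, 568 and 589 in *w1118* (log2 fold change 1.76 ± 0.08 (SE), adjusted p = 8.0e-07), *piwi* by 1.17 and *aub* by 1.07 on the log2 scale. The nuage component *krimp* and the nuclease *zuc* rose by 1.99 and 1.64 on the log2 scale, and *mael*, a nuage protein, had 1466, 1455 and 1255 in *KahΔATG* and 344, 374 and 371 in *w1118* (log2 fold change 1.93 ± 0.09 (SE), adjusted p = 7.8e-07). *spn-E*, *tud* and *shu*, which also act in that pathway, were not called, with log2 fold changes of -0.23, -0.35 and 0.37. Of the germ cell markers, *vas*, an RNA helicase of germ plasm, was at 289, 312 and 323 in *KahΔATG* and 167, 164 and 185 in *w1118* (log2 fold change 0.84 ± 0.11 (SE), adjusted p = 1.8e-04) and *nos*, a translational repressor of germ cells, at 72.5, 69.9 and 84.5 in *KahΔATG* and 47.7, 32.2 and 43.3 in *w1118* (log2 fold change 0.88 ± 0.20 (SE), adjusted p = 0.0055). *bam*, which drives differentiation of germline stem cell daughters, rose by 1.65, *CG12721*, of no function described here, by 2.30, and *pgc*, a repressor of transcription in pole cells, by 1.61 on the log2 scale. The most abundant member was *tral*, an mRNA-binding protein of the oocyte, at 12190.5, 12358 and 11633 in *KahΔATG* and 6797, 7025 and 6783 in *w1118* (log2 fold change 0.81 ± 0.06 (SE), adjusted p = 5.1e-06). Among the *w1118* libraries, replicate 1 had the highest values of *gnu* and *pgc*. Overlapping exons of other genes leave reads on *AGO3*, *piwi*, *aub*, *zuc*, *mael*, *shu*, *nos*, *bam* and *pgc* uncertain. Lost calls were those on *nos* and *gnu* with the mitochondrial term and on *pgc* with the mitochondrial term, without *KahΔATG* replicate 3 or without *w1118* replicate 2.

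Genes that drive cell division rose as broadly. Of 46 mitosis, kinetochore and condensin genes, 26 rose (56.5%), with a median of 0.75. Of 43 cyclins, Cdks, Cdc25 phosphatases and their regulators, 20 rose (46.5%), and of 50 DNA replication genes 18 rose (36%) and 1 fell. *CycB*, the mitotic cyclin B, had 16289, 16346 and 15267 in *KahΔATG* and 6603, 6521 and 6138 in *w1118* (log2 fold change 1.31 ± 0.06 (SE), adjusted p = 8.1e-07). *polo*, a mitotic kinase, had 9055, 8786 and 8074 in *KahΔATG* and 2736, 2533 and 2434 in *w1118* (log2 fold change 1.75 ± 0.07 (SE), adjusted p = 6.7e-07), and *thr*, a subunit of the separase complex, had 2641, 2741 and 2430.3 in *KahΔATG* and 629.9, 755 and 684 in *w1118* (log2 fold change 1.92 ± 0.08 (SE), adjusted p = 7.6e-07). Every mutant library lay above every control library for these 3. *CycA*, *CycB3* and *Cdk1*, further parts of the mitotic cyclin and kinase machinery, rose by 1.07, 1.60 and 1.18 on the log2 scale, and *pim*, the fly securin, by 1.65. At the kinetochore *Spc25* and *Nnf1b* rose by 1.77 and 1.74, and *tum*, a regulator of cytokinesis, by 1.72 on the log2 scale. For replication, *Orc1*, the large subunit of the origin recognition complex, had 1751, 1714 and 1612 in *KahΔATG* and 406, 346 and 324 in *w1118* (log2 fold change 2.24 ± 0.10 (SE), adjusted p = 7.0e-07), *dup*, the Cdt1 licensing factor, had 5845, 5781 and 5214 in *KahΔATG* and 1879, 2039.5 and 1882 in *w1118* (log2 fold change 1.54 ± 0.07 (SE), adjusted p = 7.8e-07), and *Mcm10*, *Cdc6* and the helicase subunit *Mcm7* rose by 2.15, 1.62 and 1.32 on the log2 scale. *Top2*, the topoisomerase that untangles sister chromatids, was the most abundant of that list and rose by 1.14 on the log2 scale. *stg*, the zygotic Cdc25 that sets the late embryonic divisions, was an exception and was not called at 2106, 1941 and 2159 in *KahΔATG* and 2486, 2389 and 2137 in *w1118* (log2 fold change -0.17 ± 0.08 (SE), adjusted p = 0.084). Exons of *thr*, *dup*, *Mcm10* and *Mcm7* are shared in part with other annotated genes.

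Of 19 centrosome genes 7 rose (36.8%, against 14.7% over all genes), 4 without *KahΔATG* replicate 2. They included *asl*, a centriole assembly protein, by 1.01 and *Cep135* by 0.82 on the log2 scale. *spd-2*, a pericentriolar recruitment protein, went the other way, with 234, 179 and 193 in *KahΔATG* and 439.9, 439 and 356 in *w1118* (log2 fold change -1.03 ± 0.13 (SE), adjusted p = 2.3e-04). It was meant for that list, but its symbol found no match, so it is not among the 19 genes counted. The mutant libraries were all below the controls for *spd-2*. Of 7 histone genes tested 3 rose (42.9%), among them *BigH1*, the early embryonic linker histone, with 464, 469.9 and 416 in *KahΔATG* and 125, 97.7 and 109 in *w1118* (log2 fold change 2.02 ± 0.12 (SE), adjusted p = 2.7e-06), and *His2Av*, a replication-independent H2A variant, by 0.97 on the log2 scale. Reads on *Cep135* may be shared with overlapping genes.

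Genes of histone acetylation and of the Brahma complex rose at shares above the background of 14.7%. Of 29 SAGA and histone acetylation genes 16 rose (55.2%) with a median of 0.63, of 35 Trithorax and Brahma complex genes 15 rose (42.9%), and of 23 Polycomb group genes 4 rose (17.4%), close to the 14.7% over all genes. *mof*, the acetyltransferase of dosage compensation, had 1014, 958 and 876 in *KahΔATG* and 360.4, 335 and 315 in *w1118* (log2 fold change 1.49 ± 0.09 (SE), adjusted p = 2.6e-06). *Gcn5*, the SAGA acetyltransferase, had 2239.6, 2152 and 2038 in *KahΔATG* and 999, 1024 and 992 in *w1118* (log2 fold change 1.09 ± 0.06 (SE), adjusted p = 2.3e-06), and *Rpd3*, a histone deacetylase, rose by 1.23 on the log2 scale. Neither of the acetyltransferases overlapped between the groups. In the Brahma remodelling complex *brm*, the ATPase, had 5022, 5189 and 4965 in *KahΔATG* and 2633, 2977 and 2617 in *w1118* (log2 fold change 0.89 ± 0.07 (SE), adjusted p = 8.4e-06), while its partners *polybromo*, *Snr1* and *dalao* rose by 1.26, 1.15 and 1.01 on the log2 scale. In the Polycomb group *Caf1*, a histone-binding subunit of several complexes, rose by 1.55, *Sfmbt* by 1.28 and the DNA-binding *pho* by 1.06 on the log2 scale. *kis*, a Trithorax group remodeller and the most abundant member of that list, was not called at a log2 fold change of 0.40, nor was *sxc*, the most abundant of the Polycomb list, at 0.40. Of 9 dosage compensation genes, 3 rose, namely *mof*, *msl-1* and *msl-3*, and the noncoding *roX1* averaged 8425 ± 680.2 in *KahΔATG* and 8932 ± 92.7 in *w1118* (SD, n = 3 each; log2 fold change -0.09). Exons of *mof*, *Gcn5*, *Rpd3*, *Sfmbt*, *kis*, *msl-3* and *roX1* overlap those of other annotated genes.

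RNA and protein machinery divided by function. Of 42 splicing factors 13 rose (31.0%), led by *U2af38*, the small subunit that recognises the 3′ splice site, with 3264, 3055 and 3120.1 in *KahΔATG* and 1362, 1208 and 1134 in *w1118* (log2 fold change 1.35 ± 0.08 (SE), adjusted p = 2.2e-06), and *Prp19* and *x16* by 1.10 and 1.09 on the log2 scale. Of 37 proteasome genes 11 rose (29.7%), and 7 with a term for the mitochondrial split. They were mostly subunits of the core particle, the chamber that degrades proteins. Of 15 core subunits 9 rose with a median of 0.64, against 1 of 20 cap subunits, which recognise and unfold substrates, with a median of 0.06. *Prosbeta3* had 1464, 1434 and 1316 in *KahΔATG* and 725, 627 and 635 in *w1118* (log2 fold change 1.09 ± 0.08 (SE), adjusted p = 8.7e-06), and *Prosbeta7* and *Prosalpha5* rose by 0.90 and 0.77 on the log2 scale. The cap ATPase *Rpt4* rose by 0.75 on the log2 scale, while *Rpt3*, *Rpn1* and *Rpn6* had log2 fold changes of 0.07, 0.05 and -0.11. Of 89 cytosolic ribosomal protein genes none was called, by limma, with 50 at an unadjusted p under 0.05 (56.2%, against 56.9% over all genes) and 0 rising and 0 falling by DESeq2 and 0 and 0 by edgeR. Their median was -0.12, and 1 rose without *KahΔATG* replicate 1 or 2 or without *w1118* replicate 1 or 3. Of 33 translation factors 2 rose, *CG5642*, annotated as an initiation factor 3 subunit, by 0.64 and *eIF3-S10* by 0.63 on the log2 scale. Overlapping exons leave reads on *U2af38*, *Prp19*, *Prosbeta3* and *Rpt4* uncertain. The call on *CG5642* was lost with the mitochondrial term.

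Several signalling pathways had components that rose. In the Notch pathway, in which a membrane ligand releases the intracellular part of Notch, 16 of 36 genes rose (44.4%, median 0.47), and 10 with a term for the mitochondrial split. *O-fut1*, the fucosyltransferase that modifies Notch, had 1417, 1430.3 and 1431 in *KahΔATG* and 672, 560.4 and 506 in *w1118* (log2 fold change 1.31 ± 0.10 (SE), adjusted p = 9.3e-06), *nct*, a subunit of γ-secretase, had 2083, 2144 and 1939.6 in *KahΔATG* and 933, 1027 and 915 in *w1118* (log2 fold change 1.10 ± 0.07 (SE), adjusted p = 4.3e-06), and *Su(H)*, the transcription factor of the pathway, had 940.0, 997 and 947 in *KahΔATG* and 493, 482 and 428 in *w1118* (log2 fold change 1.04 ± 0.08 (SE), adjusted p = 1.0e-05). No mutant library overlapped a control library for these 3. *gro*, the corepressor, rose by 0.94 and the ligand *Dl* by 0.75 on the log2 scale, whereas *N* itself had a log2 fold change of 0.46, adjusted p = 3.0e-04, below the fold limit. In the Hedgehog pathway 8 of 24 rose (33.3%), among them the kinase *fu* with 990.5, 955 and 964 in *KahΔATG* and 411, 469 and 407 in *w1118* (log2 fold change 1.18 ± 0.08 (SE), adjusted p = 5.4e-06), the kinesin-like *cos* by 0.96 and the membrane transducer *smo* by 0.94 on the log2 scale. The ligand *hh*, the receptor *ptc* and the transcription factor *ci* were not called, with log2 fold changes of 0.08, 0.25 and 0.17. Exons of *nct*, *gro*, *fu*, *smo* and *ci* overlap those of other annotated genes.

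Of 30 segment polarity and Wingless genes 6 rose (20%, against 14.7% over all genes). *pygo*, a nuclear cofactor of Armadillo, had 2875, 2976 and 2713 in *KahΔATG* and 1086, 1226 and 1131 in *w1118* (log2 fold change 1.31 ± 0.07 (SE), adjusted p = 1.7e-06), *dsh*, the cytoplasmic transducer, had 2089, 2142 and 1972 in *KahΔATG* and 1015, 1016 and 992 in *w1118* (log2 fold change 1.04 ± 0.06 (SE), adjusted p = 2.7e-06), and *wls*, which secretes Wingless, and *Apc2*, of the destruction complex, rose by 0.92 and 0.96 on the log2 scale. The ligand *wg* was not called at 663, 611 and 596 in *KahΔATG* and 611, 540.5 and 484 in *w1118* (log2 fold change 0.20 ± 0.10 (SE), adjusted p = 0.13). In the Dpp pathway 4 of 28 genes rose (14.3%), a share near the background. They were *Mad*, the receptor-activated Smad, by 1.18, *tld*, a metalloprotease that frees Dpp, by 3.08, the coactivator *nej* by 1.10 and the receptor *put* by 0.74 on the log2 scale, while *dpp* had -0.19. Of 12 JAK-STAT genes 4 rose (33.3%) and 1 fell (8.33%), against 14.7% and 10.6% over all genes. The receptor *dome* had 5084, 5079 and 4694 in *KahΔATG* and 2171, 2170.4 and 2191 in *w1118* (log2 fold change 1.18 ± 0.06 (SE), adjusted p = 1.2e-06) and the phosphatase *Ptp61F* rose by 0.89 on the log2 scale, while *chinmo*, a temporal identity factor, fell (log2 fold change -0.60). Of 48 Egfr, Ras and MAPK genes 8 rose (16.7%, near the 14.7% over all genes). They included the adaptor *ave* by 0.98 and the kinase *Src64B* by 0.92 on the log2 scale, and the ligand *spi* had a log2 fold change of -0.01. In the Hippo pathway 2 of 22 genes rose (9.09%, below the 14.7% over all genes) and the other 20 were not called. *hpo*, the kinase, had 2993, 2594 and 2596 in *KahΔATG* and 1128, 1020.2 and 993 in *w1118* (log2 fold change 1.38 ± 0.08 (SE), adjusted p = 2.3e-06), and *Rassf* rose by 1.36 on the log2 scale. Insulin and TOR genes gave 1 rise of 25 (4%, also below the 14.7% over all genes), *Tsc1*, by 0.76 on the log2 scale. Reads on *wls*, *Apc2*, *nej*, *Ptp61F* and *hpo* may be shared with overlapping genes. The call on *chinmo* was lost with the mitochondrial term, without *KahΔATG* replicate 1, without *w1118* replicate 2 or without *w1118* replicate 3.

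Few patterning genes were called beyond those loaded maternally. Of 25 dorsoventral and Toll genes 7 rose (28.0%) and 1 fell, among them *Tl*, the receptor, with 8405, 8609.6 and 8112 in *KahΔATG* and 3896, 4016 and 3863 in *w1118* (log2 fold change 1.09 ± 0.06 (SE), adjusted p = 1.3e-06), the protease *snk* by 1.36 and the adaptor *wek* by 0.94 on the log2 scale. Of 18 gap and head genes 2 rose, *bcd* and *hb*, both loaded maternally, *hb* by 0.71 on the log2 scale, while *Kr*, a zygotic gap gene, was at 873, 856 and 775 in *KahΔATG* and 844, 799 and 787 in *w1118* (log2 fold change 0.04 ± 0.08 (SE), adjusted p = 0.67). None of 11 pair-rule and 8 Hox genes was called by limma, with 2 (18.2%) and 1 (12.5%) at an unadjusted p under 0.05. DESeq2 called 0 and 0 pair-rule genes higher and lower and edgeR 0 and 0, and for Hox genes the counts were 0 and 0 by DESeq2 and 0 and 0 by edgeR. *eve*, a pair-rule gene, averaged 49.2 ± 12.8 in *KahΔATG* and 57.4 ± 13.9 in *w1118*, and *Ubx*, the Hox gene of the middle midgut, 1358 ± 56.7 in *KahΔATG* and 1383 ± 29.9 in *w1118* (SD, n = 3 each). Of 13 genes of cellularization and the first zygotic wave, 6 rose (46.2%, against 14.7% over all genes). The rises numbered 9 without *w1118* replicate 1 and were fewer than 6 with a term for the mitochondrial split. *slam*, which builds the cellularization front, had 1061, 1217 and 1027 in *KahΔATG* and 225, 302 and 268 in *w1118* (log2 fold change 2.06 ± 0.12 (SE), adjusted p = 2.3e-06), and *vfl*, also called zelda, the activator of the zygotic genome, had 5699, 5620.0 and 5193 in *KahΔATG* and 2509, 2989.6 and 2842 in *w1118* (log2 fold change 0.99 ± 0.08 (SE), adjusted p = 9.7e-06). For both genes the groups were separate. Exons of *snk*, *wek*, *eve* and *Ubx* overlap those of other annotated genes.

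**Figure D4:**
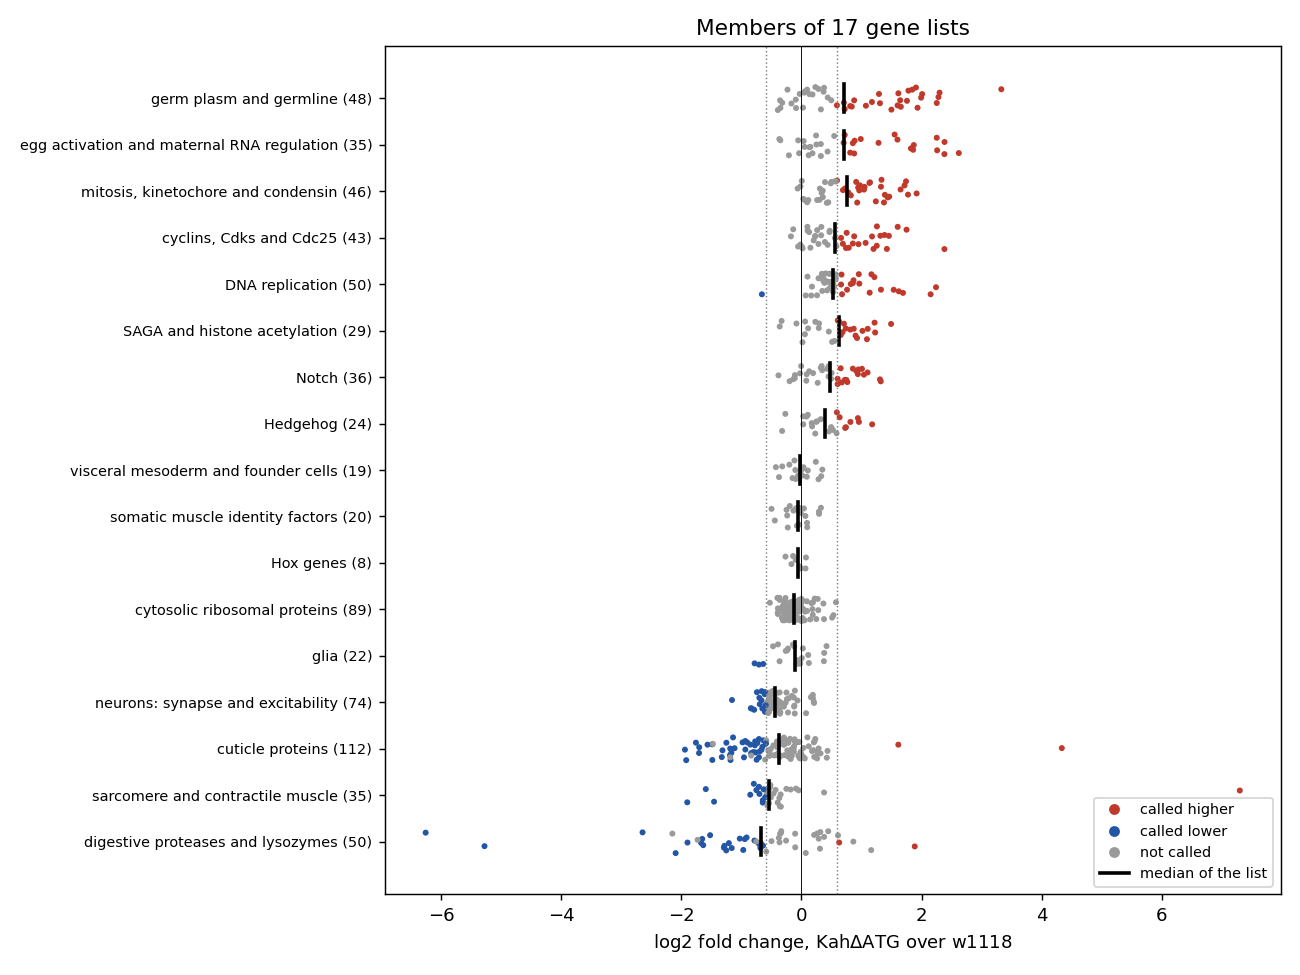
Log2 fold change of *KahΔATG* over *w1118* (horizontal axis, log2 units) for every tested member of selected gene lists (vertical axis, number tested in brackets), with called members in colour, black bars at list medians and dotted lines at -0.59 and 0.59. Germline and mitosis members lie mostly above 0, digestive members mostly below 0, and visceral mesoderm members between the dotted lines.

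Next came a list of genes of the visceral mesoderm, the tissue in which Kah is best known. The libraries held whole embryos, so the values do not describe that tissue alone. Of 19 visceral mesoderm and founder cell genes none was called by limma, DESeq2 (0 higher and 0 lower) or edgeR (0 and 0), with 7 at an unadjusted p under 0.05 (36.8%, against 56.9% over all genes). Their log2 fold changes lay between -0.43 and 0.35 with a median of -0.02. *bin*, the FoxF factor of visceral mesoderm, had 221, 263 and 244 in *KahΔATG* and 212, 259 and 249.9 in *w1118* (log2 fold change 0.02 ± 0.12 (SE), adjusted p = 0.92). *Fas3*, an adhesion protein of its membranes, had 7782, 7927 and 7993 in *KahΔATG* and 8839.7, 8160.0 and 7721 in *w1118* (log2 fold change -0.06 ± 0.06 (SE), adjusted p = 0.48), and *Alk*, the receptor upstream of *Kah*, had 671, 807 and 773 in *KahΔATG* and 725, 800.3 and 879 in *w1118* (log2 fold change -0.10 ± 0.10 (SE), adjusted p = 0.46). The libraries of the groups overlapped for these 3 genes. *bap*, the NK factor of the trunk, had a log2 fold change of -0.12, and *fax*, the most abundant member, 0.11. None of the 20 identity factors of somatic muscle was called by limma either, with 4 at an unadjusted p under 0.05 (20%) and 0 higher and 0 lower by DESeq2 and 0 and 0 by edgeR. *Mef2*, the differentiation factor of all muscle, was 2615, 2696 and 2759 in *KahΔATG* and 2856, 2955 and 3041 in *w1118* (log2 fold change -0.13 ± 0.06 (SE), adjusted p = 0.085), and *twi* had a log2 fold change of -0.04. Of 21 myoblast fusion genes *Ced-12*, an exchange factor partner, rose by 0.63 on the log2 scale, and the fusion receptors *sns* and *kirre* had -0.02 and 0.09. Exons of *twi* and *Ced-12* overlap those of other annotated genes.

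Genes of contractile muscle, which build the sarcomere, were examined next. Of 35 sarcomere genes 12 fell (34.3%, against 10.6% over all genes) and *Lasp* alone rose, and 2 of 35 had a log2 fold change above 0, with a median of -0.54. *Mhc*, muscle myosin heavy chain, had 49067, 61205 and 56345 in *KahΔATG* and 69492, 99997 and 92955 in *w1118* (log2 fold change -0.64 ± 0.14 (SE), adjusted p = 0.0042). *TpnC41C*, a troponin C, had 57.8, 52.7 and 70.4 in *KahΔATG* and 186, 165 and 198 in *w1118* (log2 fold change -1.59 ± 0.16 (SE), adjusted p = 3.8e-05), and *Act79B*, a muscle actin, had 14.7, 12.9 and 17.1 in *KahΔATG* and 44.0, 66.4 and 66.9 in *w1118* (log2 fold change -1.90 ± 0.25 (SE), adjusted p = 2.4e-04). Every mutant library was below every control library for these 3. *tn*, a muscle TRIM protein, fell (log2 fold change -0.85), as did *Zasp52*, of the Z-disc (-0.79), and *Unc-89*, the fly obscurin (-0.75), while the most abundant gene, the actin *Act57B*, had -0.55, adjusted p = 0.0036, short of the fold limit. The count of falls depended on single libraries. It was 6 without *KahΔATG* replicate 1, 21 without *w1118* replicate 1, 7 without replicate 2, 9 without replicate 3 and 3 with a term for the mitochondrial split. In the heart list, *CAP* and *Sur*, a cytoskeletal adaptor and a sulfonylurea receptor, fell (log2 fold changes -0.77 and -0.64), and the other 22 of 24 were not called, with 4 falls without *w1118* replicate 1. None of 26 integrin and attachment genes was called by limma, with 11 at an unadjusted p under 0.05 (42.3%, against 56.9%), 0 lower by DESeq2 and 0 lower by edgeR, while 4 fell without *w1118* replicate 1 and 1 without *KahΔATG* replicate 2. Overlapping exons leave reads on *Lasp*, *Act57B* and *CAP* uncertain. Lost calls were those on *Mhc* and *Unc-89* with the mitochondrial term, without *KahΔATG* replicate 1 or without *w1118* replicate 2, on *Zasp52* and *CAP* with the mitochondrial term and on *Sur* with the mitochondrial term, without *KahΔATG* replicate 3, without *w1118* replicate 2 or without *w1118* replicate 3.

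The cuticle, which the epidermis secretes late in embryogenesis, also had genes that fell. Of 112 cuticle protein genes 38 fell (33.9%), 2 rose, and the median was -0.37. The low-molecular-weight Lcp family had 8 falls among 13 and a median of -0.98, the Cpr family 15 among 53 with -0.25, and the Tweedle family 3 among 25 with -0.26. *Cpr97Eb* had 63.1, 67.7 and 47.3 in *KahΔATG* and 189, 245 and 256 in *w1118* (log2 fold change -1.94 ± 0.18 (SE), adjusted p = 2.8e-05), and *Cpr49Af* had 156, 182 and 291 in *KahΔATG* and 549, 783 and 745 in *w1118* (log2 fold change -1.76 ± 0.22 (SE), adjusted p = 1.9e-04). No library of one group reached into the other for either gene. *TwdlM*, the most abundant, was 27227, 30383 and 38157 in *KahΔATG* and 34905, 56844 and 47607 in *w1118* (log2 fold change -0.53 ± 0.18 (SE), adjusted p = 0.032) and was not called. *Lcp65Ab1* and *Lcp65Ab2*, with log2 fold changes of -1.49 and -1.70, are near-identical copies whose reads cannot be assigned with certainty. The number of falls was 20 with a term for the mitochondrial split. Of 38 chitin and tanning genes 8 fell (21.1%, against 10.6% over all genes) and 1 rose (2.63%), with fewer falling under that term. *Ddc*, dopa decarboxylase of the hardening cuticle, had 1169, 1290.5 and 1333 in *KahΔATG* and 1746, 2709 and 2808 in *w1118* (log2 fold change -0.91 ± 0.16 (SE), adjusted p = 0.0014), *ple*, tyrosine hydroxylase, fell (log2 fold change -0.65) as did *e*, which makes β-alanyl dopamine (-0.97), and the chitinase-like growth factors *Idgf1* and *Idgf3* fell (log2 fold changes -1.02 and -1.06). *knk*, which organises chitin, rose with 262, 317 and 284 in *KahΔATG* and 107, 104 and 66.9 in *w1118* (log2 fold change 1.65 ± 0.19 (SE), adjusted p = 9.0e-05). Reads on *Ddc* and *knk* may be shared with overlapping genes. Lost calls were those on *Ddc* with the mitochondrial term and on *ple* with the mitochondrial term, without *KahΔATG* replicate 1 or without *w1118* replicate 3.

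Few genes of the epidermis and trachea were called. Of 32 epidermal apical matrix genes 1 rose, *sn*, the fly fascin of denticle bundles, by 0.92 on the log2 scale, and 1 fell, *pio*, a zona pellucida protein (log2 fold change -0.73). *kkv*, the chitin synthase, had 3114, 3137 and 2943 in *KahΔATG* and 3152, 2999 and 2766 in *w1118* (log2 fold change 0.05 ± 0.07 (SE), adjusted p = 0.6), and *Osi7*, of the Osiris family of apical secretion genes, had a log2 fold change of 0.19. In the trachea *btl*, the FGF receptor, rose with 588, 509.7 and 519 in *KahΔATG* and 396, 338 and 294 in *w1118* (log2 fold change 0.66 ± 0.12 (SE), adjusted p = 0.0017), *knk* rose and *pio* fell, and the other 23 of 26 genes, *trh* at -0.16 among them, were not called. None of 12 amnioserosa genes was called by limma, with 6 at an unadjusted p under 0.05 (50%), 0 higher by DESeq2 and 0 higher by edgeR. Of 31 polarity and adherens junction genes 4 rose (12.9%) and 1 fell (3.23%), and of 27 septate junction genes 2 fell (7.41%) and none rose. These shares were below the 14.7% higher and 10.6% lower over all genes. The adherens junction proteins *alpha-Cat* and *p120ctn* rose by 0.84 and 0.83 on the log2 scale. The smooth septate junction proteins *mesh* and *Tsp2A*, found in the midgut, fell (log2 fold changes -0.60 and -0.68). Exons of *sn*, *knk*, *trh* and *alpha-Cat* overlap those of other annotated genes. Lost calls were those on *pio* with the mitochondrial term, on *btl* and *Tsp2A* with the mitochondrial term or without *w1118* replicate 3 and on *mesh* with the mitochondrial term, without *KahΔATG* replicate 1, without *w1118* replicate 2 or without *w1118* replicate 3.

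In the nervous system, some genes of a neuroblast and proneural list rose and some genes of a synapse and excitability list fell. Of 41 neuroblast and proneural genes 9 rose (22.0%, against 14.7% over all genes) and 32 were not called. The rises numbered 5 without *KahΔATG* replicate 1 and were also fewer with the mitochondrial term. The neuroblast factor *wor*, given above, was not called at a log2 fold change of 0.47. *brat*, a translational repressor segregated by dividing neuroblasts, had 8507, 8512 and 8097 in *KahΔATG* and 4483, 4593 and 4514 in *w1118* (log2 fold change 0.89 ± 0.05 (SE), adjusted p = 2.9e-06), and *par-6*, of the apical polarity complex, rose by 0.75 on the log2 scale. Of 74 genes of synapses and excitability 14 fell (18.9%, against 10.6% over all genes), with a median of -0.45. *GluRIIC*, a glutamate receptor subunit on the muscle side of the neuromuscular junction, had 286, 281 and 266 in *KahΔATG* and 411, 540.5 and 558 in *w1118* (log2 fold change -0.84 ± 0.12 (SE), adjusted p = 4.8e-04). *nAChRalpha7*, an acetylcholine receptor subunit, had 186, 257 and 232 in *KahΔATG* and 299, 400.1 and 480.1 in *w1118* (log2 fold change -0.79 ± 0.18 (SE), adjusted p = 0.006), and *VAChT*, which loads acetylcholine into vesicles, had 733, 962 and 904 in *KahΔATG* and 1129, 1567 and 1682 in *w1118* (log2 fold change -0.74 ± 0.15 (SE), adjusted p = 0.0034). The groups did not overlap for these 3, with *w1118* replicate 1 the lowest control in each. The count of falls was 36 without *w1118* replicate 1, 5 without replicate 3, 8 without *KahΔATG* replicate 1, 27 without *KahΔATG* replicate 2 and 0 with the mitochondrial term, which leaves *w1118* replicate 1 as the sole control. *elav*, the marker of all neurons, was 4328, 4477 and 4511 in *KahΔATG* and 4732, 4730.4 and 5027 in *w1118* (log2 fold change -0.12 ± 0.06 (SE), adjusted p = 0.1), and *brp*, of the active zone, had a log2 fold change of -0.54, adjusted p = 0.01. Neither was called. Reads on *brat* and *elav* may be shared with overlapping genes. Calls on *GluRIIC*, *nAChRalpha7* and *VAChT* were lost with the mitochondrial term.

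**Figure D5:**
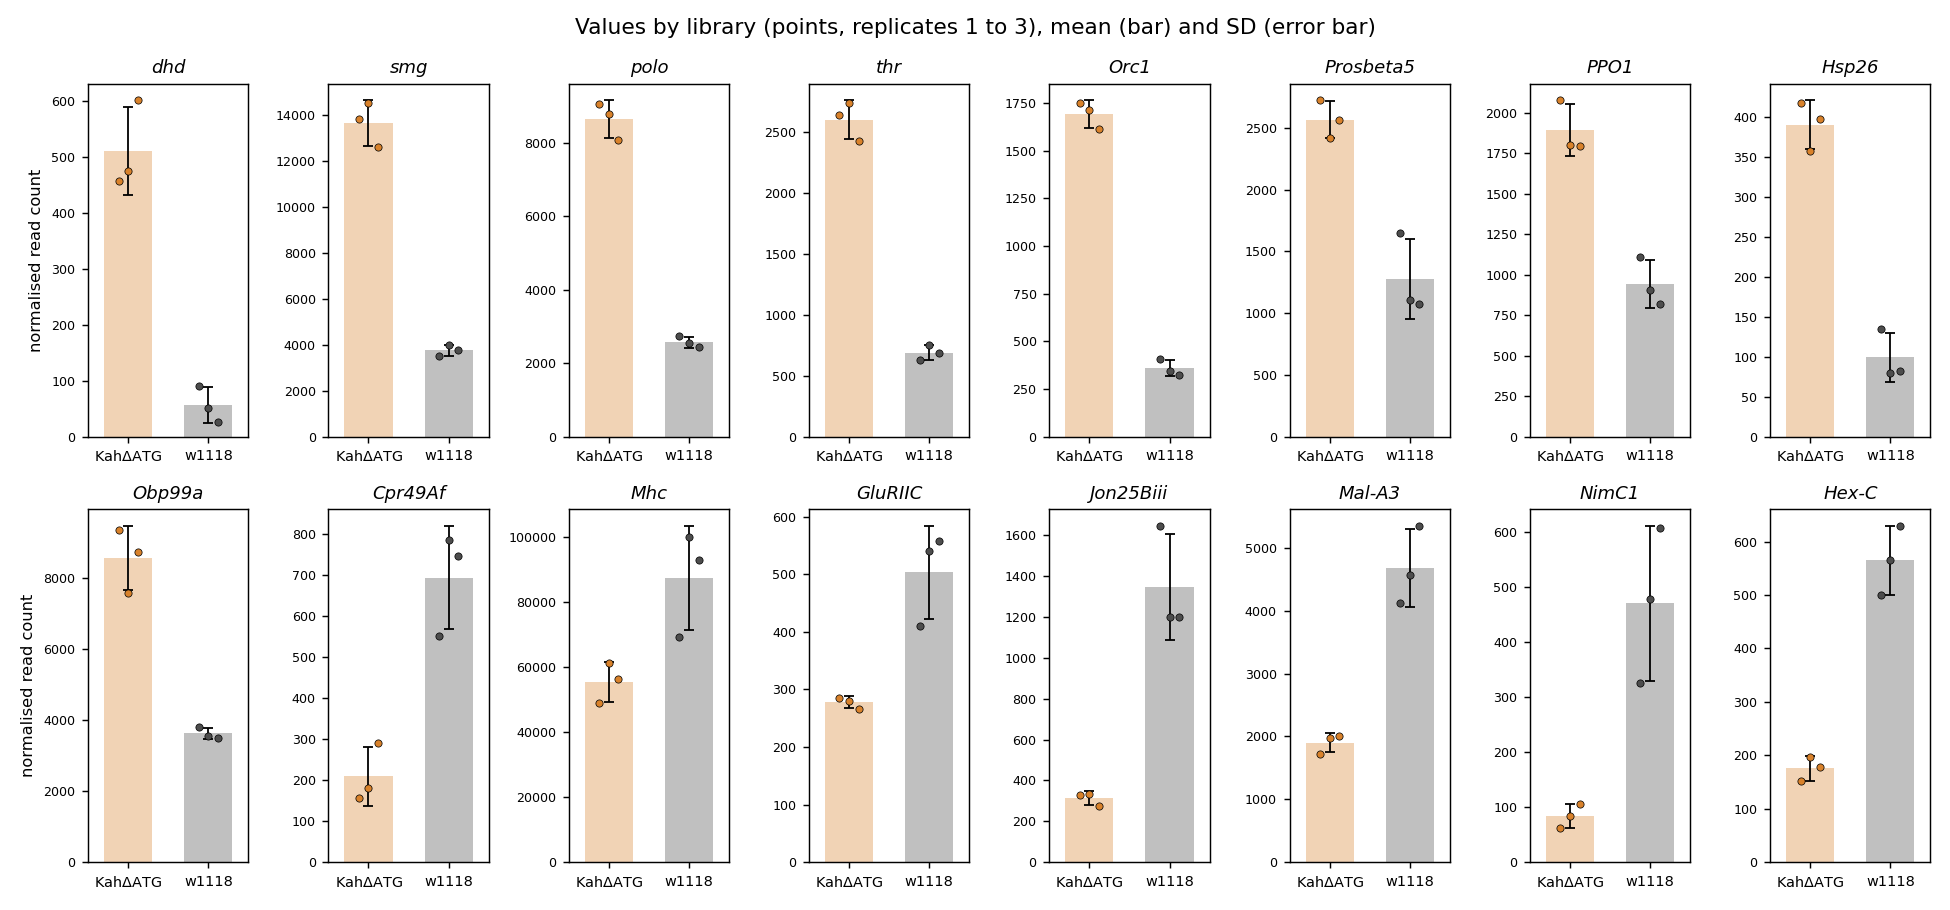
Normalised read count (vertical axis, linear and starting at 0, with its own scale for each gene) of selected genes, *KahΔATG* left of *w1118*, with points for replicates 1 to 3, bars for the mean and error bars for the SD (n = 3 each). Maternal and cell division genes such as *smg* and *polo* are higher in all mutant libraries, and genes such as *Mhc*, *Jon25Biii* and *NimC1* are lower in all mutant libraries.

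Of 37 neuropeptide and hormone genes 6 fell, 13 without *w1118* replicate 1 and 1 with the mitochondrial term. *Dh44*, a diuretic hormone, had 72.5, 94.6 and 76.4 in *KahΔATG* and 123, 162 and 183 in *w1118* (log2 fold change -0.92 ± 0.18 (SE), adjusted p = 0.0026), and *NPF*, the neuropeptide F of brain and midgut, fell (log2 fold change -1.0002). *Dh31* and *CCHa1*, which are made by enteroendocrine cells as well as neurons, fell (log2 fold changes -0.70 and -0.83). Of 22 glial genes 3 fell, 0 with the mitochondrial term, namely the glutamate transporter *Eaat1* with 1384, 1598 and 1608 in *KahΔATG* and 2207, 2596 and 3143 in *w1118* (log2 fold change -0.78 ± 0.12 (SE), adjusted p = 6.6e-04), its relative *Eaat2* (-0.71) and the astrocyte gene *alrm* (-0.64). *repo*, the glial master gene, was 606, 575 and 588 in *KahΔATG* and 589.7, 595 and 611 in *w1118* (log2 fold change -0.02 ± 0.07 (SE), adjusted p = 0.82). Axon guidance genes were mixed, with 4 of 50 rising and 5 falling, 2 with the mitochondrial term. *Pak*, a kinase downstream of guidance receptors, had 3426, 3403 and 3065 in *KahΔATG* and 1662, 1619 and 1692 in *w1118* (log2 fold change 0.99 ± 0.07 (SE), adjusted p = 4.2e-06), and *comm3*, *beat-Ib* and *Ptp52F* fell (log2 fold changes -0.998, -0.89 and -0.86). The shares that fell were 16.2% of neuropeptide, 13.6% of glial and 10% of axon guidance genes, against 10.6% over all genes. The 8% of axon guidance genes that rose was below the 14.7% over all genes. Of 64 genes of sense organs and chemoreception 17 fell (26.6%) and 6 rose, and 10 fell without *w1118* replicate 3 and 8 with the mitochondrial term. *Or71a*, an odorant receptor, had 2.10, 5.38 and 1.01 in *KahΔATG* and 124, 131 and 105.3 in *w1118*, 43.2 (95% counting interval 21.7 to 101) times lower in summed reads, and *ppk13*, a sodium channel subunit of the pickpocket family, had 3.15, 9.68 and 12.1 in *KahΔATG* and 94.5, 62.6 and 76.7 in *w1118* (log2 fold change -3.22 ± 0.42 (SE), adjusted p = 2.1e-04). The odorant-binding proteins *Obp99a*, *Obp99b* and *Obp99c* rose together by 1.23, 1.54 and 1.24 on the log2 scale. Overlapping exons leave reads on *repo* and *Obp99c* uncertain. Lost calls were those on *Dh44*, *CCHa1*, *Eaat1*, *Eaat2* and *beat-Ib* with the mitochondrial term, on *Dh31* with the mitochondrial term or without *w1118* replicate 3 and on *alrm* with the mitochondrial term, without *KahΔATG* replicate 1 or without *w1118* replicate 3.

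Digestive enzymes were the tissue list with the largest share of falls among those of 20 or more genes. Of 50 proteases, lysozymes and maltases 24 fell (48.0%) and 2 rose, with a median of -0.68. The rises numbered 6 without *w1118* replicate 1, 1 without *w1118* replicate 2, 4 with the replicate number as a block and 1 with the mitochondrial term. *Jon25Biii*, a Jonah serine protease, had 328, 336 and 273 in *KahΔATG* and 1644, 1198 and 1197 in *w1118* (log2 fold change -2.09 ± 0.14 (SE), adjusted p = 3.8e-06). *thetaTry*, a trypsin, had 46.3, 69.9 and 50.3 in *KahΔATG* and 285, 332 and 439.8 in *w1118* (log2 fold change -2.64 ± 0.20 (SE), adjusted p = 8.8e-06), and *Mal-A3*, the most abundant of the list and a maltase, had 1724, 1983 and 2003 in *KahΔATG* and 4116, 4565 and 5343 in *w1118* (log2 fold change -1.29 ± 0.10 (SE), adjusted p = 9.7e-06). All mutant values lay below all control values for these 3. Of 16 Jonah proteases 8 fell with a median of -1.22, and of 10 trypsins 7 fell, none having a log2 fold change above 0. *LysX* was 160.3 (95% counting interval 44.0 to 1329) times lower in summed reads, whereas *LysS*, another lysozyme, rose with 62.0, 81.7 and 62.3 in *KahΔATG* and 23.4, 19.9 and 11.8 in *w1118* (log2 fold change 1.89 ± 0.28 (SE), adjusted p = 4.8e-04), and *Mal-A1* rose by 0.63 on the log2 scale. Lysozymes and Jonah proteases are tandem families of near-identical copies, between which reads can be split. *Npc2d*, a lipid-binding protein gene named here for its size of change, had 4.21, 0 and 0 in *KahΔATG* and 65.5, 60.7 and 72.8 in *w1118*, 47.6 (95% counting interval 18.3 to 176) times lower. None of 20 endoderm and midgut factors was called by limma, with 6 at an unadjusted p under 0.05 (30%) and 0 lower by DESeq2 and 0 by edgeR. *GATAe*, the midgut GATA factor, had 1263, 1256 and 1239 in *KahΔATG* and 1771, 1738 and 1826 in *w1118* (log2 fold change -0.51 ± 0.06 (SE), adjusted p = 1.2e-04), separate between the groups but short of the fold limit. Exons of *Mal-A1* overlap those of other annotated genes. The call on *Mal-A1* was lost with the mitochondrial term, without *KahΔATG* replicate 2 or without *w1118* replicate 2.

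Detoxification genes changed in both directions. Of 151 tested, 18 rose (11.9%) and 37 fell (24.5%). Glutathione S-transferases gave 4 rises among 34, and cytochromes P450 11 rises and 21 falls among 68. UDP-glycosyltransferases with an Ugt symbol gave 1 rise and 8 falls among 17. By protein domain (UDPGT), which also takes in genes without that symbol such as *CG5724*, 3 of 34 rose and 13 fell. *GstE3* had 4093, 3961 and 4100.4 in *KahΔATG* and 939.8, 860.0 and 974 in *w1118* (log2 fold change 2.13 ± 0.07 (SE), adjusted p = 1.9e-07), *Cyp4p2* had 110.4, 138 and 114 in *KahΔATG* and 15.9, 9.48 and 33.5 in *w1118* (log2 fold change 2.73 ± 0.38 (SE), adjusted p = 3.2e-04), and *Cyp6t3*, a P450 of ecdysone synthesis, had 14.7, 26.9 and 30.2 in *KahΔATG* and 100.2, 114 and 100.4 in *w1118* (log2 fold change -2.14 ± 0.26 (SE), adjusted p = 1.6e-04). The groups were apart for each. The tandem copies *Cyp12d1-p* and *Cyp12d1-d* rose by 1.86 and 3.30 on the log2 scale with reads that may be split between them. *Prx2540-2*, a peroxiredoxin, had 3692, 3706 and 3906 in *KahΔATG* and 932, 855 and 704 in *w1118* (log2 fold change 2.19 ± 0.10 (SE), adjusted p = 7.8e-07), and *Adh*, alcohol dehydrogenase, rose by 1.90 on the log2 scale. Of 36 ecdysone genes 4 rose and 4 fell (11.1% each, against 14.7% and 10.6% over all genes). The rises included *Eip71CD*, a methionine sulfoxide reductase, by 1.38 and *dib*, a P450 of ecdysone synthesis, by 0.99 on the log2 scale. The falls included *Eip74EF* and *Eip78C*, transcription factors of the response (log2 fold changes -0.80 and -0.83). With the mitochondrial term 1 rose and 2 fell. Reads on *Cyp6t3*, *Adh* and *dib* may be shared with overlapping genes. Calls on *dib* and *Eip74EF* were lost with the mitochondrial term.

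Antimicrobial peptide genes of the Imd pathway were raised at low counts. Of 34 immune genes 11 rose (32.4%) and 5 fell (14.7%), 6 and 3 with the mitochondrial term. *DptB*, a diptericin, had 136, 139 and 153 in *KahΔATG* and 0, 0.948 and 1.97 in *w1118*, a ratio of summed reads of 149 (95% counting interval 50.7 to 727). *Dpt*, its neighbour in the family, had 64.1, 89.3 and 56.3 in *KahΔATG* and 0, 2.84 and 3.94 in *w1118*, a ratio of 31.2 (95% counting interval 14.9 to 78.6), and *AttA*, an attacin with a near-identical copy, had 58.9, 49.5 and 61.3 in *KahΔATG* and 1.87, 3.79 and 2.95 in *w1118*, a ratio of 19.8 (95% counting interval 10.2 to 44.0). In every mutant library these genes were above every control library. *Dro*, drosocin, had 31.5, 32.3 and 25.1 in *KahΔATG* and 0, 1.90 and 1.97 in *w1118*. *Drs*, the antifungal peptide of the Toll pathway, went the other way with 4.21, 4.30 and 1.01 in *KahΔATG* and 12.2, 18.02 and 12.8 in *w1118* (log2 fold change -1.99 ± 0.48 (SE), adjusted p = 0.0077). The pathway genes *imd* and *Rel*, an adaptor and the NF-κB factor, were not called, *imd* averaging 356 ± 22.3 in *KahΔATG* and 337 ± 4.99 in *w1118* and *Rel* 902 ± 70.4 in *KahΔATG* and 948 ± 100.4 in *w1118* (SD, n = 3 each). *Fadd*, another adaptor of the pathway, fell (log2 fold change -1.47). Of 24 hemocyte genes 4 fell (16.7%) and 1 rose (4.17%), against 10.6% and 14.7% over all genes. *NimC1* had 63.1, 83.9 and 107 in *KahΔATG* and 327, 478 and 607 in *w1118* (log2 fold change -2.45 ± 0.24 (SE), adjusted p = 4.2e-05), *Hml*, hemolectin, had 352, 560.3 and 506 in *KahΔATG* and 819, 1001 and 1378 in *w1118* (log2 fold change -1.17 ± 0.21 (SE), adjusted p = 0.0015), and *PPO1*, prophenoloxidase of crystal cells, rose with 2075, 1802 and 1791 in *KahΔATG* and 1106, 904 and 819.6 in *w1118* (log2 fold change 1.01 ± 0.11 (SE), adjusted p = 8.3e-05). *PPO2* and the GATA factor *srp* had log2 fold changes of -0.20 and -0.14 and were not called. The falls numbered 8 without *w1118* replicate 1, 2 without replicate 3 and 2 without *KahΔATG* replicate 1. Exons of *DptB*, *imd* and *srp* overlap those of other annotated genes. The call on *Drs* was lost with the mitochondrial term.

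Of 24 heat shock and Turandot genes 6 rose (25%) and 3 fell (12.5%), against 14.7% and 10.6% over all genes. The falls were near that share and were fewer with the mitochondrial term. Of the small heat shock proteins, *Hsp26* rose with 417, 358 and 397 in *KahΔATG* and 135, 79.6 and 82.6 in *w1118* (log2 fold change 2.01 ± 0.19 (SE), adjusted p = 3.3e-05), *Hsp23* by 1.11 and *Hsp27* by 0.99 on the log2 scale. *Hsp67Bc*, *l(2)efl* and *CG7409* of the same family were not called, with log2 fold changes of -0.30, -0.28 and -0.56. *Victoria*, a Turandot family gene, had 63.1, 74.2 and 60.3 in *KahΔATG* and 0, 0 and 0 in *w1118*, at least 22.97-fold higher against a limit of 3 reads in each *w1118* library, while *TotC* of the same family had 7.36, 2.15 and 3.02 in *KahΔATG* and 29.0, 15.2 and 13.8 in *w1118* (log2 fold change -2.03 ± 0.48 (SE), adjusted p = 0.0067). The abundant chaperone *Hsc70-4* averaged 32058 ± 427 in *KahΔATG* and 33869 ± 1705 in *w1118* (SD, n = 3 each). Of 23 apoptosis genes 4 rose (17.4%, near the 14.7% over all genes) and 1 fell (4.35%). The effector caspase *Drice*, with 1955, 1997 and 1893 in *KahΔATG* and 956, 942 and 938 in *w1118* (log2 fold change 1.04 ± 0.06 (SE), adjusted p = 2.3e-06), and the initiator caspase *Dronc*, by 0.98 on the log2 scale, rose, whereas *Diap1*, their inhibitor, had a log2 fold change of -0.06. Of 10 fat body genes 2 rose (20%, against 14.7% over all genes), among them *Lsd-1*, a lipid droplet protein, with 510.0, 408 and 434 in *KahΔATG* and 256, 210.5 and 209 in *w1118* (log2 fold change 0.9996 ± 0.12 (SE), adjusted p = 1.6e-04), while *Rfabg*, the lipophorin precursor, had a log2 fold change of -0.16. Overlapping exons leave reads on *Hsp27*, *l(2)efl*, *Diap1*, *Lsd-1* and *Rfabg* uncertain.

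In energy metabolism some glycolysis genes fell, while few nuclear genes of oxidative phosphorylation were called and their median was below 0. Of 21 glycolysis genes 4 fell (19.0%, against 10.6% over all genes), with a median of -0.49 and 1 above 0. *Hex-C*, a hexokinase, had 151, 198 and 178 in *KahΔATG* and 501, 565 and 629 in *w1118* (log2 fold change -1.68 ± 0.13 (SE), adjusted p = 8.8e-06), *Treh*, trehalase, had 2356, 3083 and 2777 in *KahΔATG* and 4474, 5500.4 and 6469 in *w1118* (log2 fold change -0.99 ± 0.14 (SE), adjusted p = 3.2e-04), and *Gpdh* and *Pgm*, glycerol-3-phosphate dehydrogenase and phosphoglucomutase, fell (log2 fold changes -0.70 and -0.63). The groups did not overlap for the first pair. Of 74 nuclear genes of oxidative phosphorylation 5 fell (6.76%, below the background), 55 had an unadjusted p under 0.05 (74.3%, against 56.9% over all genes) and the median was -0.37. *blw*, the ATP synthase alpha subunit, had 13836, 14820.0 and 14280.1 in *KahΔATG* and 18987, 22436 and 23494 in *w1118* (log2 fold change -0.59 ± 0.08 (SE), adjusted p = 4.0e-04). The falls numbered 2 without *KahΔATG* replicate 1, 3 without *w1118* replicate 2 or 3 and 0 with the mitochondrial term. Transcripts of the mitochondrial genome gave 4 rises of 22, 9 without *w1118* replicate 1 and 0 with the term. *mt:CoI*, cytochrome oxidase subunit I, was 255883, 244270.5 and 251968 in *KahΔATG* and 243915, 171334 and 207547 in *w1118* (log2 fold change 0.29 ± 0.13 (SE), adjusted p = 0.095), with *w1118* replicate 1 next to the mutant libraries and the other *w1118* libraries below them. Of 74 mitochondrial ribosomal protein genes 1 rose and 2 fell, 6 with the mitochondrial term. Exons of *Treh*, *Gpdh* and *Pgm* overlap those of other annotated genes. The call on *blw* was lost with the mitochondrial term, without *KahΔATG* replicate 1, without *KahΔATG* replicate 3, without *w1118* replicate 2 or without *w1118* replicate 3.

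Collagens and other basement membrane proteins are made largely by hemocytes and fat body. Of 23 genes 3 fell (13.0%, near the 10.6% over all genes) and 5 had a log2 fold change above 0. The falls numbered 9 without *w1118* replicate 1, 5 without *KahΔATG* replicate 2, and 1 without *KahΔATG* replicate 1, without *w1118* replicate 3 or with the mitochondrial term. *Cg25C* and *vkg*, the collagen IV chains, had log2 fold changes of -0.50, adjusted p = 0.015 and -0.46, adjusted p = 0.018, and *Pxn*, peroxidasin, fell (log2 fold change -0.61). Of 17 pigment genes *rb*, of vesicle sorting, rose with 2278, 2164 and 2146 in *KahΔATG* and 1046, 1009.8 and 1009 in *w1118* (log2 fold change 1.10 ± 0.06 (SE), adjusted p = 1.9e-06), and *v*, tryptophan oxidase of the ommochrome path, fell with 316, 309 and 303 in *KahΔATG* and 745, 633 and 776 in *w1118* (log2 fold change -1.21 ± 0.10 (SE), adjusted p = 1.1e-05). The groups were separate for both. Overlapping exons leave reads on *Pxn* uncertain. The call on *Pxn* was lost with the mitochondrial term, without *KahΔATG* replicate 1 or without *w1118* replicate 3.

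Which of these changes differed from the other *Kah* allele was tested directly between the mutants, with no *w1118* library in the fit. Of 10838 genes tested 2026 differed (18.7%), 1512 higher (14.0%) and 514 lower (4.74%) in *KahΔATG* than in *KahΔZnF*. The *KahΔZnF* libraries had a split of their own, with 8.67% mitochondrial reads in replicate 1 and 16.6% and 16.0% in replicates 2 and 3. Without that replicate 1 the fit gave 1575 higher and 640 lower. The part of that split in the list counts below was not tested. Of the 1615 genes that rose in *KahΔATG*, 150 were higher and 155 lower than in *KahΔZnF*, and of the 1165 that fell 377 were higher and 76 lower. By list, 12 of 46 mitosis genes and 9 of 48 germline genes were lower in *KahΔATG* than in *KahΔZnF*, while 38 of 74 synapse and excitability genes and 76 of 112 cuticle genes were higher. Of 35 sarcomere genes 5 were higher, a share near the 14.0% over all genes. *CG1304* was the most extreme, higher by 8.85 on the log2 scale (adjusted p = 4.1e-09). *CG18607* rose in *KahΔATG* with 166, 252 and 247 in *KahΔATG* and 34.6, 20.9 and 29.5 in *w1118* (log2 fold change 2.93 ± 0.23 (SE), adjusted p = 1.1e-05) and was higher than in *KahΔZnF* by 5.39 (adjusted p = 1.4e-07), and *CG7860*, *CG43349* and *CG11164*, which rose by 2.07, 1.83 and 1.80, were higher by 3.18, 3.01 and 2.54 on the log2 scale. In the other direction *CG12116* was lower (log2 difference -4.01, adjusted p = 1.1e-07), as was *spd-2* (-2.29, adjusted p = 1.1e-07). The comparisons of each mutant with *w1118* share the control libraries, and side by side their log2 fold changes for *spd-2* were -1.03 in *KahΔATG* and 1.29 in *KahΔZnF*, and for *CG7860* 2.07 in *KahΔATG* and -1.09 in *KahΔZnF*. *Kah* itself was higher by 1.17 on the log2 scale (adjusted p = 1.5e-06) in *KahΔATG*. For *IM3*, an immune-induced peptide, the log2 difference was 2.54 (adjusted p = 8.7e-05), and for *smg* it was -0.19 (adjusted p = 0.089), not called.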

How the data were processed

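Whole embryos of *KahΔATG* and *w1118*, 3 replicates each, were sequenced as paired-end RNA libraries. The authors aligned reads to BDGP6 with HISAT2 (2.0.5), counted them per gene with featureCounts (1.5.0-p3) and scaled them in DESeq2 (1.20.0), tools that the submitters' processing notes name. Whether strand was used in counting is not given in the sources used here. The deposited values are a signal per gene, the reads divided by a size factor of the library. The deposited fold changes and p-values hold the authors' own comparison and were not used. 

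Genes with a value of 10 or more in at least 3 of 6 libraries were tested with limma (3.58.1, R 4.3.3) with a mean-variance trend on log2(value + 1), so fold changes of low genes are understated. The p-values were adjusted by the Benjamini-Hochberg method over all genes tested. Whole reads were recovered from the values (100% whole within a tolerance of 0.01) for DESeq2 (1.42.0) and edgeR (4.0.16) as alternatives and for the test between mutants, which scaled both tables together. Intervals on ratios of summed reads cover counting error only.

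Members and lists were chosen with earlier results of these data known. Listed symbols that matched no single gene were left out of the counts. A lysyl-tRNA synthetase caught by the lysozyme name pattern was removed after values were seen, which changed no count of called members. The rule named *Kah*, *w* and *y*, the 12 largest rises and falls with a mean of at least 100 and groups that do not overlap, and, in each list, up to 4 called members with a mean of at least 50 and the most abundant member. By it 179 of the genes printed were chosen, and 94 were chosen once their values were known, as markers, pathway members or large changes. Exon overlaps come from a later annotation of the same assembly, in which 98.5% of the genes found had equal coordinates. Alternatives covered the test, scaling, filter, pseudocount, a fold limit in the test, a replicate block, the mitochondrial term and each library left out in turn. *KahΔZnF* against *w1118* was not analysed here beyond values set beside those of *KahΔATG*. No sequences are printed, and figures were made in Python 3.11.15 (matplotlib 3.10.9).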

Additional observations from a re-analysis of the deposited data

How the results depend on the processing

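Of the genes called, 1052 (805 higher and 247 lower) passed a test against a fold change of 1.5, and the mitochondrial term, which compares the mutant libraries with *w1118* replicate 1 alone, left 1393 higher and 629 lower, 2022 in all. DESeq2 called 2731 genes, edgeR 2800, TMM scaling 2776, pseudocounts of 0.5 and 5 gave 2777 and 2743, and filters at no limit and at 50 gave 3002 and 2398. With 1 library left out the count ran from 2385 (without *w1118* replicate 3) to 3293 (without *w1118* replicate 1), 1518 to 1785 higher and 867 to 1508 lower. Same-numbered libraries of the genotypes deviated together with correlations of 0.25, 0.09 and 0.12 over genes, and libraries of unlike number with -0.22 to 0.11. Deviations within a group of 3 sum to 0, so these values cannot show whether the replicate numbers pair the samples. With the replicate number as a block 2840 genes were called, 1639 higher and 1201 lower. Between the mutants the alternatives called 1745 to 2247 genes, and the replicate block 2004. *Kah* stayed called throughout. Among genes near 0 that were not called, the sign of the log2 fold change turned with the mitochondrial term to 0.13 for *y*, -0.0408 for *kkv*, 0.0440 for *Alk*, -0.0184 for *Kr*, -0.0220 for *Rpt3*, 0.00253 for *Ubx*, 0.11 for *Rel*, -0.0691 for *Osi7*, -0.0125 for *Rpn1* and -0.0105 for *shu*. When single libraries were left out, it spanned 0, at -0.30 to 0.0841 for *bap*, -0.0700 to 0.0826 for *bin*, -0.41 to 0.00576 for *eve*, -0.0121 to 0.15 for *kirre*, -0.00507 to 0.0891 for *kkv*, -0.00451 to 0.0788 for *Rpn1*, -0.0819 to 0.0363 for *sna*, -0.0389 to 0.000795 for *sns*, -0.0345 to 0.0232 for *spi*, -0.13 to 0.0125 for *twi* and -0.17 to 0.0719 for *y*. The cause was not tested. Of the called genes named, none lost its call under DESeq2, edgeR, TMM scaling, another pseudocount or the replicate block, while of 271 genes named and tested 59 lost it when the limit of 1.5-fold entered the test, 34 with the mitochondrial term and 0 to 11 with 1 library left out. Depth limits genes of few reads, and with 3 libraries a group no alternative separates the *Kah* deletion from embryo collection or strain background.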

Other observations

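Gene families, grouped by the protein domain that the deposited table gives and in part made of genes already in the lists, moved as follows. Of 82 genes with a zinc-finger associated domain (zf-AD), an insect-expanded class of DNA-binding proteins, 33 rose (40.2%), with a median log2 fold change of 0.41. Of 23 genes with a ubiquitin-conjugating domain 10 rose (43.5%), of 34 DEAD-box RNA helicase genes 11 rose (32.4%), and of 18 genes with a BESS domain 7 rose (38.9%), against 14.7% over all genes. Of 63 rhodopsin-like receptor genes (7tm_1) 22 fell (34.9%) and 1 rose, with a median of -0.49. Of 31 ion channel genes 8 fell (25.8%), of 20 serpin genes 7 fell, of 33 tetraspanin genes 10 fell (30.3%) and of 48 sugar transporter genes 15 fell (31.2%), against 10.6% over all genes. Homeobox genes were rarely called, with 2 of 71 higher and 3 lower. Domain counts were not recomputed under the alternatives.

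Genes without a protein product were examined by class. Of 404 long noncoding and antisense RNAs tested 51 rose (12.6%) and 49 fell (12.1%), near the 14.7% and 10.6% over all genes, and 32 fell without *w1118* replicate 2, 27 without replicate 3 and 20 with the mitochondrial term. *CR42646* had 242, 241 and 232 in *KahΔATG* and 49.6, 28.4 and 41.3 in *w1118* (log2 fold change 2.59 ± 0.20 (SE), adjusted p = 9.0e-06). *CR44316* had 58.9, 74.2 and 51.3 in *KahΔATG* and 0, 0.948 and 0.984 in *w1118*, a ratio of summed reads of 96.1 (95% counting interval 26.2 to 799.5), and *CR45625* had 0, 0 and 0 in *KahΔATG* and 39.3, 41.7 and 41.3 in *w1118*, at least 13.0-fold lower against a limit of 3 reads in each *KahΔATG* library. The groups did not overlap for any of the 3. Of 51 pseudogenes tested 17 rose (33.3%) and 4 fell, with a median log2 fold change of 0.51. Of 40 small nucleolar RNAs 5 rose (12.5%, near the background), 3 without *KahΔATG* replicate 2 or 3 or with the mitochondrial term, and 1 fell. Exons of *CR42646* overlap those of other annotated genes, so its reads may be shared. None of these genes was set against a hypothesis.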
